A study of Homo sapiens with 10 samples.

Results

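The genes described here encode proteins that write, erase or read out chemical marks on chromatin or move nucleosomes, together with the enzymes of DNA methylation. They were chosen by symbol, with earlier results of these data known. The symbols begin with KDM, KMT, SETD, HDAC (without the class IIa deacetylases), KAT, SMARC, ARID, PRMT or DNMT. Symbols that begin with CHD or TET and a number were taken too, as were EZH2, EED, SUZ12, CREBBP and EP300. Of 105 such genes with a named probe, 82 had a probe detected on at least 5 of the 10 arrays (detection p below 0.05) and were tested, among 9041 genes tested in all. The symbol rule also takes in genes that are no histone enzymes. 5 of the 82 encode katanin proteins, which cut microtubules, or a partner of them (KATNA1, KATNAL1, KATNAL2, KATNBL1 and KATNIP). SETD3 methylates actin, SMARCAL1 rewinds DNA at stalled replication forks, and ARID3A, ARID3B and ARID5B are known as sequence-binding proteins.

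The arrays were of OCI-LY10, an established human lymphoma line (diffuse large B-cell, activated B-cell type), and came in 2 groups of 5. One group received 1 micromolar CC-122 for 18 hours and the other the solvent DMSO for 18 hours. CC-122 (avadomide) binds cereblon, the part of a ubiquitin ligase that selects substrates, and so brings the lymphoid factors Ikaros and Aiolos to degradation. A single cell line was used. Nothing in the labels ties the replicates to cultures of their own, so a p-value here weighs only the spread between arrays, which may be technical.

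Chromatin enzymes work in pairs of opposed activities. Acetyltransferases and deacetylases set histone acetylation, methyltransferases and demethylases set lysine methylation, and remodelling ATPases of the SWI/SNF, ISWI and CHD families slide or evict nucleosomes. In B-cell lymphoma this machinery is known for frequent mutation, above all in KMT2D, CREBBP, EP300 and EZH2. Its activity is set largely by protein partners and modification, which transcript arrays do not measure.

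The arrays were alike in coverage, with 18043 to 18844 probes detected on each. CC-122 replicate 3 was brighter than the rest, with a median raw intensity of 108.9 as against 74.0 to 81.6 on the other 9 arrays. After normalization, arrays of 1 group correlated at 0.989 to 0.993 across genes. Between 80 and 82 of the tested chromatin genes were detected on any array. B-cell markers fitted the label, since 9 of 9 with a named probe were detected on all 10 arrays, CD79A, CD79B and MS4A1 among them, though 3 of the 9 were called higher and 4 lower after CC-122. Of 9 markers of the activated B-cell type with a named probe, 7 passed the filter and 6 were detected on all arrays. All 7 germinal centre type markers with a named probe were detected on all arrays, as was EPCAM, an epithelial marker. Of 12 T and NK cell markers none passed the filter and 6, CD3D among them, were detected on no array. Monocyte markers LYZ, CSF1R, CD163 and FCGR1A were likewise detected on no array, and CD14 and CD68, the monocyte markers that passed, were not called. Since each array measured a pool of cells, fewer cells with a transcript and less of it per cell cannot be told apart.

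Most chromatin enzyme genes did not pass the test, and those that did moved by small amounts and in both directions. A gene was called when its Benjamini-Hochberg adjusted p from limma was below 0.05 over all genes tested. By that rule 11 of the 82 were called (13.4%), near the background of 14.8% of all genes. CHD2, KDM1A, SETD1B, SMARCA4, PRMT2 and ARID5B rose, which is 6 genes where 8.15% of all genes rose. SMARCAL1, SMARCB1, PRMT3, SETDB2 and SUZ12 fell, which is 5 genes where 6.67% of all genes fell. The median log2 difference, CC-122 minus DMSO, was -0.01 over the 82 genes and -0.01 over all genes tested. The median size of the difference, whatever its sign, was 0.09 among the 82 and 0.12 among all genes. An unadjusted p below 0.05 was reached by 18 of the 82 (22.0%) and by 27.6% of all genes.

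**Figure D1:**
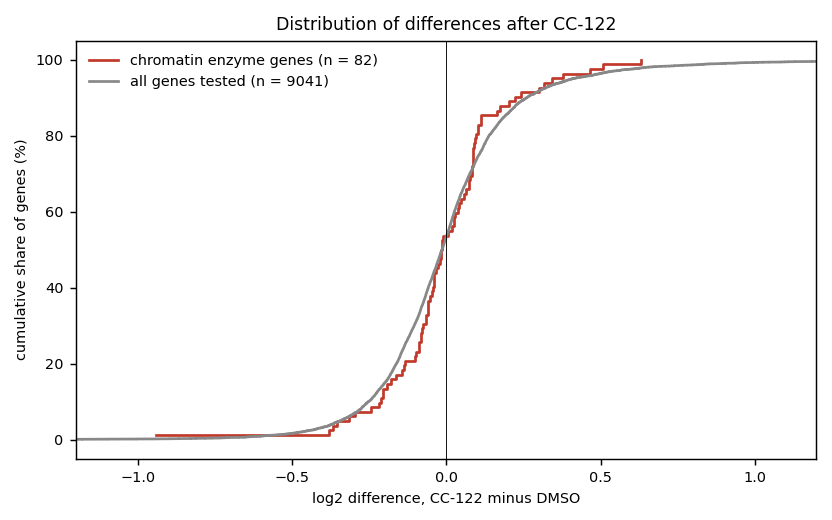
Cumulative share of genes (vertical axis, percent) by log2 difference, CC-122 minus DMSO (horizontal axis), for the 82 tested chromatin enzyme genes in red and all 9041 genes tested in grey. Both curves pass the midpoint at a difference of -0.01, and the lowest red step is SMARCAL1 at -0.94.

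Changes of at least 1.5-fold were found in 2 of the 82 genes, SMARCAL1 and CHD2, or 2.44%, where 3.63% of all genes were called at that size. In 12 of the 82 genes the CC-122 and DMSO values were fully apart, 5 with CC-122 above and 7 with CC-122 below DMSO, and 13.4% of all genes had groups apart. These 12 were the called genes without SETD1B, plus KDM2B and PRMT6. For 67 of the 71 uncalled genes, the 95% interval of the difference lay within 1.5-fold in either direction, and for 30 within 1.2-fold. The exceptions at 1.5-fold were KDM4B, KAT5, KAT6B and KAT7. These intervals are of the normalized values, in which an added offset makes differences of dim probes smaller. For dim genes such as KMT5C (5.04 after CC-122, 4.98 after DMSO) they are therefore no firm bound on the fold. When arrays were scaled to a common median in place of quantile normalization, 2 of the 82 were higher and 1 lower, and 404 of all genes were higher and 79 lower, as against 737 and 603 with quantile normalization.

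**Figure D2:**
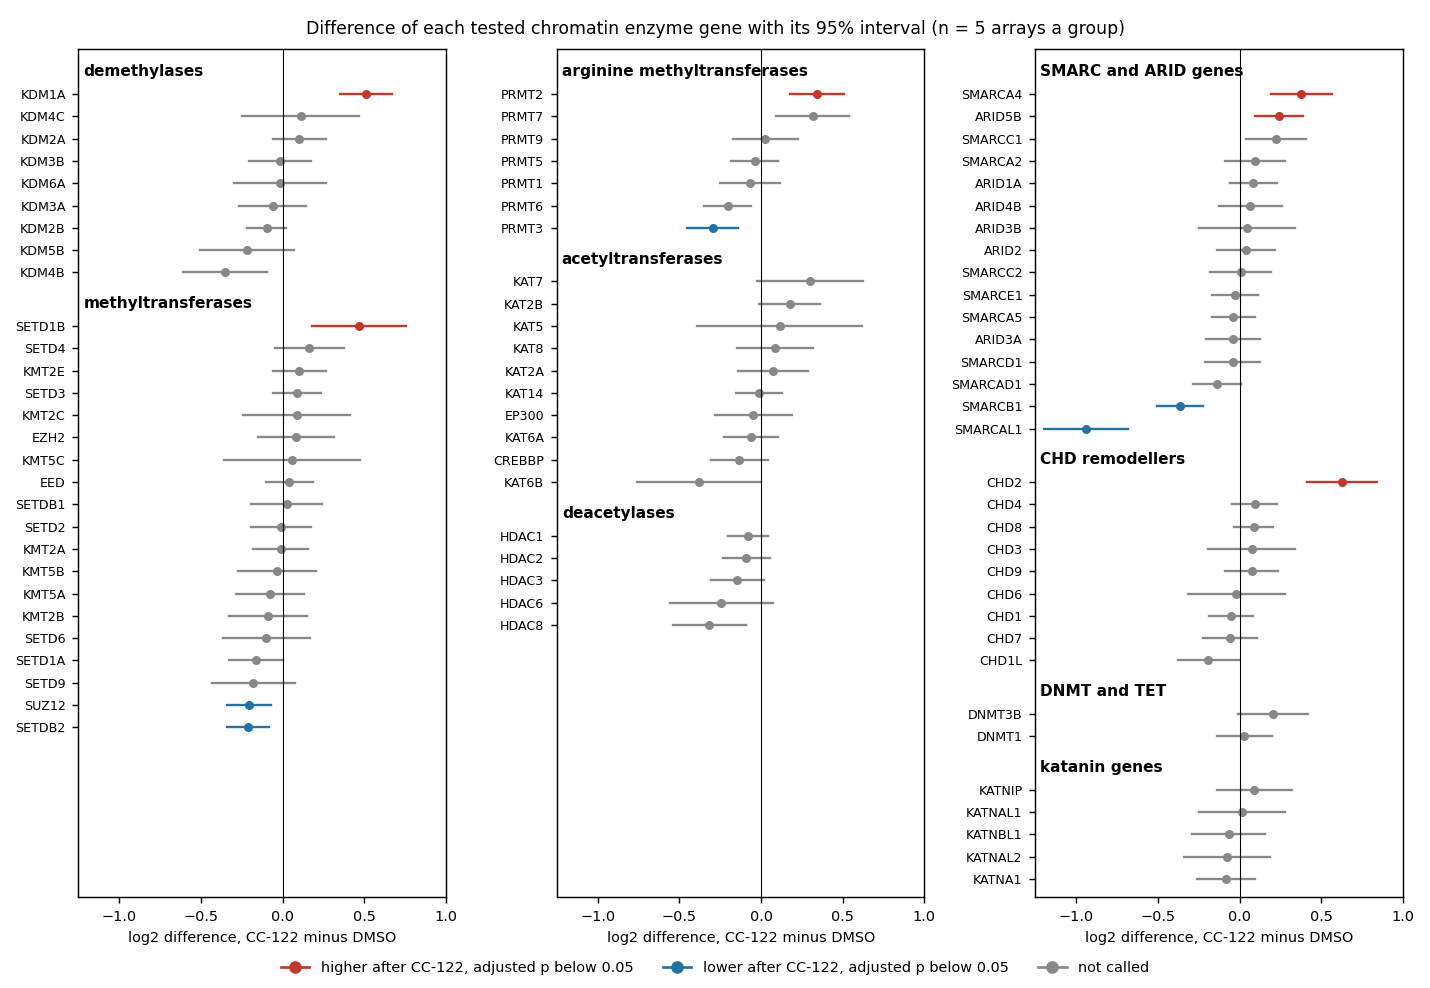
Log2 difference, CC-122 minus DMSO, with its 95% interval for each of the 82 tested genes, arranged by class (points are fitted differences, n = 5 arrays a group). Red genes were called higher and blue genes lower, and grey genes, 71 of the 82, were not called.

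Among the nucleosome remodellers of the SWI/SNF family and genes named with them, 2 of 16 rose, 2 fell and 12 were not called. That is 25% called, where 14.8% of all genes were. SMARCA4 (BRG1), an ATPase that powers the SWI/SNF complex, rose, while SMARCB1 (BAF47), a core subunit that helps it grip the nucleosome, fell. SMARCA4 had 10.09, 10.01, 10.16, 10.02 and 10.14 normalized log2 intensity on the CC-122 arrays, against 9.90, 9.75, 9.83, 9.45 and 9.61 on the DMSO arrays. Each CC-122 array lay above each DMSO array, and the DMSO arrays were the more spread. The difference was 0.38 ± 0.09 (SE, limma adjusted p = 0.00970) on the log2 scale. SMARCB1 had 10.15, 9.99, 10.17, 10.15 and 10.17 on the CC-122 arrays, against 10.61, 10.42, 10.44, 10.45 and 10.54 on the DMSO arrays. Again no values overlapped, and CC-122 replicate 2 was the lowest. SMARCB1 fell by 0.37 ± 0.06 on the log2 scale (SE, limma adjusted p = 0.00180), and its second probe fell by 0.55. With median scaling SMARCA4 was at 0.47 (adjusted p = 0.102) and SMARCB1 at -0.28 (adjusted p = 0.575), neither of them called.

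The promoter windows of this pair are shown because they are the core SWI/SNF subunits that moved, in opposite directions. Each runs from 250 bases before to 50 after the transcript start (RefSeq, GRCh38.p14). Capitals mark the core of the interferon-stimulated response element (GAAA, any 2 bases, then GAAA), looked for on both strands.
SMARCA4, chr19:10960780-10961079, plus strand: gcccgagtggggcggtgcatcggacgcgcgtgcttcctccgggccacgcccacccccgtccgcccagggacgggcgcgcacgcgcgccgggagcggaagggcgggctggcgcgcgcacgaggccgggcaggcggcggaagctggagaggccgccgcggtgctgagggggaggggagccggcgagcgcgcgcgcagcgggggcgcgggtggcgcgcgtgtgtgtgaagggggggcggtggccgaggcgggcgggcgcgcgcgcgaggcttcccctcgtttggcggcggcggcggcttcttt
SMARCB1, chr22:23786716-23787015, plus strand: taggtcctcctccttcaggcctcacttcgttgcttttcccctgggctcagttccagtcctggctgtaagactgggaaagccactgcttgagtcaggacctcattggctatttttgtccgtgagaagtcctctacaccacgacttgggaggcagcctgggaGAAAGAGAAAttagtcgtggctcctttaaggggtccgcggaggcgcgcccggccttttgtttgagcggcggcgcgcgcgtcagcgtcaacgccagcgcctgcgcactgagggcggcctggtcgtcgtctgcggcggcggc
The SMARCA4 window is 81.3% G and C with 55 CpG pairs, and the SMARCB1 window is 61.7% G and C with 25. The capital pattern occurred in the SMARCB1 window alone among the 10 called genes with a window, and in 3.57% of all 35116 windows. Of the 72 tested genes with a window, 2 held it, the other being SMARCA5. TTCNNNGAA, the pattern of interferon gamma activated sites, was in 7.66% of all windows, in none of the 10 and in 2 of the 72. No window of the 72 held both patterns, and a match is only a match of letters.

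The other core SWI/SNF genes differed little. SMARCC1 (BAF155), a scaffold subunit, averaged 10.10 ± 0.11 after CC-122 and 9.88 ± 0.15 after DMSO (SD, n = 5 each) and was not called (limma adjusted p = 0.104). It was called at 0.21 with a fixed offset or with no background correction, with an intensity trend, and at 0.28 without DMSO replicate 5. ARID1A, the subunit that marks the canonical complex, averaged 8.41 ± 0.10 and 8.32 ± 0.06 (difference 0.09, 95% interval -0.06 to 0.23). ARID2, which marks the polybromo form, differed by 0.04 (95% interval -0.14 to 0.22). Counting SMARCA2, SMARCC2, SMARCD1 and SMARCE1 as well, 7 of 9 core subunits were not called, with differences from -0.04 to 0.22.

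SMARCAL1, the fork-remodelling helicase, had the largest difference of the 82 genes. It had 4.85, 5.42, 5.59, 5.26 and 5.20 on the CC-122 arrays, against 6.08, 6.13, 6.21, 6.25 and 6.34 on the DMSO arrays. All CC-122 values lay below all DMSO values, and CC-122 replicate 1 was the lowest. SMARCAL1 was 1.92-fold lower after CC-122 and fell by 0.94 ± 0.12 on the log2 scale (SE, limma adjusted p = 0.000149). Its probe was near the background, so the size depends on the correction. The difference was -0.57 with a fixed offset of 50 and -0.44 with no background correction, called in both. Both alternatives add or leave constant signal on every array, which makes the difference of a dim probe smaller. The offset in the main fit acts the same way, so whether 1.92-fold is too large or too small was not tested. ARID5B, a DNA-binding protein known as a partner of the demethylase PHF2, had 7.80, 7.68, 7.79, 7.66 and 7.79 after CC-122, against 7.51, 7.52, 7.33, 7.56 and 7.59 after DMSO. Its groups did not overlap, and it rose by 0.24 ± 0.07 (SE, limma adjusted p = 0.0283). The ARID5B call was lost without CC-122 replicate 1, 3 or 5 or DMSO replicate 1, 2 or 3, with adjusted p up to 0.0638, and also with median scaling or when replicate numbers entered as a block (adjusted p = 0.399 and 0.0623).

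**Figure D3:**
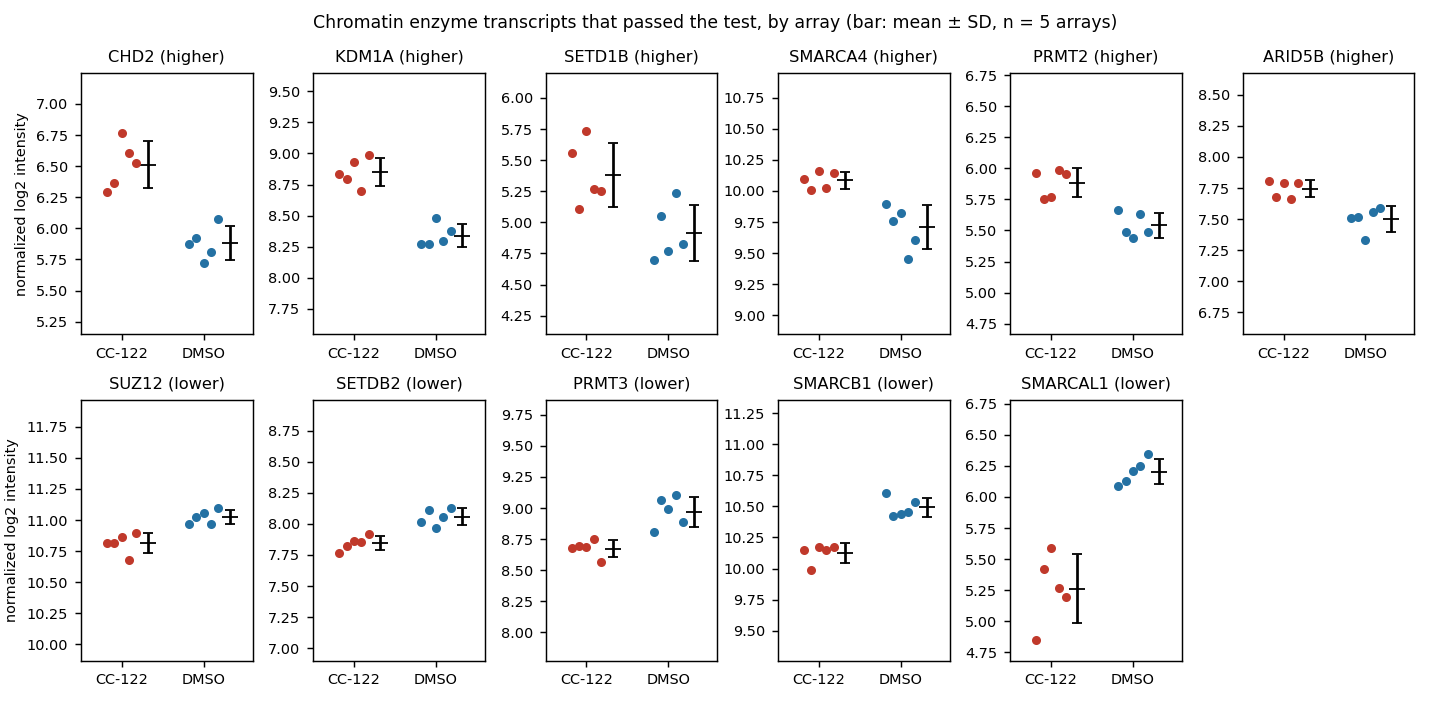
Normalized log2 intensity (vertical axis, each panel spanning the same range) of the 11 called genes on each array, CC-122 in red and DMSO in blue, with mean ± SD of 5 arrays beside the points. The groups overlap in SETD1B and in none of the other 10 panels.

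Of 9 CHD remodellers tested, CHD2 rose and 8 were not called (11.1% called, background 14.8%). CHD2, a remodeller found at active genes, had 6.30, 6.36, 6.77, 6.61 and 6.52 on the CC-122 arrays, against 5.88, 5.92, 5.72, 5.81 and 6.08 on the DMSO arrays. The groups did not overlap, and CC-122 replicate 3 was the highest. This was a 1.55-fold rise, or 0.63 ± 0.10 on the log2 scale (SE, limma adjusted p = 0.000766). The rise was 0.43 with a fixed offset of 50 and 0.35 with no background correction, called in both. CHD4 and CHD3, the ATPases of the NuRD deacetylase complex, differed by 0.09 (95% interval -0.05 to 0.23) and 0.08 (95% interval -0.19 to 0.34). CHD1L, a remodeller activated by poly(ADP-ribose), was at -0.19 and was not called (limma adjusted p = 0.172).

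Of 9 lysine demethylases tested, KDM1A rose and 8 were not called (11.1% called, background 14.8%). KDM1A (LSD1) strips methyl groups from lysine 4 of histone H3 at silenced enhancers and works with the CoREST repressor. It had 8.84, 8.79, 8.93, 8.70 and 8.99 on the CC-122 arrays, against 8.27, 8.27, 8.48, 8.30 and 8.38 on the DMSO arrays. No CC-122 value lay below a DMSO value. This was a 1.42-fold rise, or 0.51 ± 0.07 on the log2 scale (SE, limma adjusted p = 0.000412), with 0.47 under a fixed offset and 0.44 without background correction. KDM4B, which acts on lysine 9 of histone H3, lay at 5.39 to 5.87 after CC-122 and 5.61 to 6.24 after DMSO. Its difference of -0.35 was not called (limma adjusted p = 0.0670). It was called lower in 5 of the alternatives, among them the fits without DMSO replicate 3 (-0.45) and without CC-122 replicate 2 (-0.41). KDM2B, which brings a Polycomb complex to CpG islands, had groups that did not overlap, 9.40 to 9.46 after CC-122 and 9.47 to 9.60 after DMSO, with an uncalled difference of -0.10 (95% interval -0.22 to 0.02). Its dimmer kept probe, detected on 1 CC-122 and 4 DMSO arrays, was at -0.46 and not called (limma adjusted p = 0.142 over all probes kept). KDM4C was detected on 3 arrays of each group, and its difference of 0.11 had a wide interval, from -0.25 to 0.47.

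Among the lysine methyltransferases and their PRC2 partners, 1 of 19 rose, 2 fell and 16 were not called (15.8% called, background 14.8%). SETD1B, a catalytic subunit of a COMPASS complex that methylates lysine 4 of histone H3, had 5.56, 5.10, 5.74, 5.27 and 5.25 after CC-122, against 4.70, 5.05, 4.77, 5.24 and 4.82 after DMSO. Its groups overlapped, since DMSO replicate 4 lay above CC-122 replicate 2. SETD1B rose by 0.47 ± 0.13 (SE, limma adjusted p = 0.0339), by 0.24 with a fixed offset and by 0.18 without background correction. The call was lost without CC-122 replicate 1 or 3 or DMSO replicate 1, 3 or 5 (adjusted p up to 0.0798), when no filter was set, with the block and with median scaling (adjusted p = 0.0657, 0.0858 and 0.0525). SETDB2, which methylates lysine 9 of histone H3, had 7.76, 7.82, 7.86, 7.86 and 7.92 after CC-122, against 8.02, 8.11, 7.96, 8.05 and 8.13 after DMSO. Its values did not overlap, and it fell by 0.21 ± 0.06 (SE, limma adjusted p = 0.0314). That call was lost without CC-122 replicate 1, 2 or 3 or DMSO replicate 2, 4 or 5 (adjusted p up to 0.0786), with the block (0.0544) and with median scaling (0.933).

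Polycomb repressive complex 2 puts methyl groups on lysine 27 of histone H3 through EZH2, with EED and SUZ12 as essential partners. SUZ12 had 10.82, 10.82, 10.86, 10.68 and 10.90 after CC-122, against 10.97, 11.02, 11.06, 10.97 and 11.09 after DMSO. The groups did not overlap, though the gap was small, and SUZ12 fell by 0.21 ± 0.06 (SE, limma adjusted p = 0.0416). This was the least stable of the 11 calls: it was lost when any of 9 arrays was left out, that is any but CC-122 replicate 5 (adjusted p up to 0.0856), with the block (0.0531), when no filter was set (0.0623) and with median scaling (0.936). Probes of SUZ12 can share signal with its pseudogene. EZH2, the catalytic subunit, had 8.33, 8.48, 8.18, 8.37 and 8.18 after CC-122, against 8.52, 8.02, 8.11, 8.05 and 8.42 after DMSO. Its groups overlapped, and the difference of 0.08 had a 95% interval of -0.15 to 0.32. The 3 kept probes of EZH2 gave 0.08, 0.11 and 0.003, none called. EED differed by 0.04 (95% interval -0.10 to 0.18).

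The remaining lysine methyltransferases were not called, at -0.18 to 0.16. SETD9 was the lowest of them, at 6.62 ± 0.28 after CC-122 and 6.80 ± 0.08 after DMSO (SD, n = 5 each). CC-122 replicate 4 stood at 7.10 for this gene, and without it the difference was -0.30 and called (limma adjusted p = 0.0157). KMT5C, a methyltransferase of lysine 20 of histone H4, was detected on 4 of the CC-122 and 5 of the DMSO arrays and differed by 0.06 (95% interval -0.36 to 0.48).

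Of 7 arginine methyltransferases tested, PRMT2 rose, PRMT3 fell and 5 were not called (28.6% called, background 14.8%). PRMT3, a cytoplasmic enzyme that methylates a protein of the small ribosomal subunit, had 8.68, 8.69, 8.68, 8.75 and 8.56 after CC-122, against 8.81, 9.06, 8.99, 9.10 and 8.89 after DMSO. All CC-122 arrays lay below all DMSO arrays. PRMT3 fell by 0.30 ± 0.07 (SE, limma adjusted p = 0.0135) and lost its call with median scaling, at -0.21 (adjusted p = 0.787), and at the stricter threshold of 0.01. PRMT2, known as a coactivator of nuclear receptors, had 5.97, 5.75, 5.77, 5.98 and 5.96 after CC-122, against 5.67, 5.49, 5.44, 5.63 and 5.49 after DMSO, again apart. It rose by 0.34 ± 0.08 (SE, limma adjusted p = 0.00805), while its second kept probe gave 0.16 and was not called. The PRMT2 rise was 0.21 with a fixed offset and 0.16 without background correction, and the mean of its probes, at 0.25, and median scaling, at 0.41, gave no call (adjusted p = 0.0561 and 0.198).

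Near the threshold lay PRMT7, which adds a single methyl group, at 0.32 (limma adjusted p = 0.0578), and PRMT6, at -0.20 (limma adjusted p = 0.0596), whose groups were apart. PRMT7 was called with a fixed offset (0.20), among probes detected on all arrays, and without CC-122 replicate 4 (0.38). PRMT6 was called lower in 4 of the alternatives. Its second kept probe was at -0.12 and not called (limma adjusted p = 0.315 over all probes kept). PRMT1, the main enzyme of asymmetric arginine methylation, averaged 9.33 ± 0.07 after CC-122 and 9.39 ± 0.17 after DMSO, a difference of -0.07 (95% interval -0.25 to 0.12).

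None of the 10 acetyltransferases tested was called by limma, and KAT6B alone had an unadjusted p below 0.05, which 27.6% of all genes had. CREBBP and EP300, the paired coactivators that acetylate lysine 27 of histone H3 at enhancers, differed by -0.13 (95% interval -0.31 to 0.04) and -0.05 (95% interval -0.28 to 0.19). CREBBP averaged 7.23 ± 0.15 after CC-122 and 7.36 ± 0.09 after DMSO, and EP300 averaged 6.67 ± 0.12 and 6.72 ± 0.23 (SD, n = 5 each). KAT14, a subunit of the ATAC complex, differed by -0.01 (95% interval -0.15 to 0.13). KAT6B, of the MYST family, was detected on 3 CC-122 and 5 DMSO arrays and differed by -0.38 (95% interval -0.76 to -0.00, limma adjusted p = 0.181). Its call appeared without CC-122 replicate 5 (-0.54, adjusted p = 0.0185) and when replicate numbers entered as a block (adjusted p = 0.0433). KAT7 (HBO1) was detected on 4 CC-122 and 5 DMSO arrays and differed by 0.30 (95% interval -0.03 to 0.62), with 0.43 and a call (adjusted p = 0.0287) without CC-122 replicate 4.

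The 5 deacetylases tested had differences below 0, from -0.32 to -0.08, and none was called by limma. Of all genes tested, 46.5% had a difference above 0. HDAC1 and HDAC2, the near-identical subunits of the NuRD, SIN3 and CoREST repressors, differed by -0.08 (95% interval -0.21 to 0.04) and -0.09 (95% interval -0.23 to 0.05). HDAC1 was at 0.01 with median scaling. HDAC3, the enzyme of the NCoR complex, had 8.31, 8.28, 8.35, 8.33 and 8.39 after CC-122, against 8.68, 8.26, 8.44, 8.49 and 8.49 after DMSO. Only DMSO replicate 2 lay below the CC-122 values. Its difference was -0.15 (95% interval -0.31 to 0.02). HDAC8 was at 4.71 ± 0.12 after CC-122 and 5.03 ± 0.22 after DMSO and missed the threshold (limma adjusted p = 0.0592). It was called lower without CC-122 replicate 4 (-0.37), DMSO replicate 3 (-0.36) or DMSO replicate 4 (-0.36), among probes detected on all arrays and with array weights. HDAC8 alone of the 5 had an unadjusted p below 0.05 (27.6% of all genes). HDAC6, named after its value was seen, was at -0.24 (limma adjusted p = 0.313). It was called lower in 2 of the alternatives, both without CC-122 replicate 3, where it stood at 5.82.

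DNA methyltransferases were not called by limma, and neither of those tested had an unadjusted p below 0.05 (27.6% of all genes). DNMT1, which copies methylation after replication, averaged 11.45 ± 0.12 after CC-122 and 11.42 ± 0.11 after DMSO (difference 0.03, 95% interval -0.14 to 0.20). DNMT3B, which places new methylation, averaged 5.88 ± 0.22 and 5.68 ± 0.08 (difference 0.20, limma adjusted p = 0.208). A dimmer probe of DNMT3B rose by 0.39 (limma adjusted p = 0.0402 over all probes kept) and a further one differed by 0.06. Without CC-122 replicate 2, which had the lowest value of all 10 arrays at 5.50, DNMT3B differed by 0.30 and was called (adjusted p = 0.0160). The probes of DNMT3A, DNMT3L and TET2 were detected on no array.

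The katanin genes, which entered by their prefix, were not called by limma, adjusted or not, with differences from -0.08 to 0.09. KATNA1, the catalytic katanin subunit, was at -0.08, KATNBL1 at -0.07 and KATNIP at 0.09.

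In all, 23 of the 105 genes were below the filter and were not tested. Those detected on no array were ARID3C, DNMT3A, DNMT3L, PRMT8, SETD7, SMARCD3 and TET2. Others were detected on at most 3 arrays, among them the demethylases KDM6B, KDM7A and KDM8, on 3 each, and KMT2D, on 1. ARID1B and TET1 were detected on 1 array each by their best probe. For 19 of the tested genes several probes were kept. Of these, 8 had probes of opposite sign, but none had called probes of opposite sign. SMARCA5, the ISWI ATPase, stood at -0.04 by its brighter probe, while its other probe fell by 0.27 (limma adjusted p = 0.0357 over all probes kept).

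**Figure D4:**
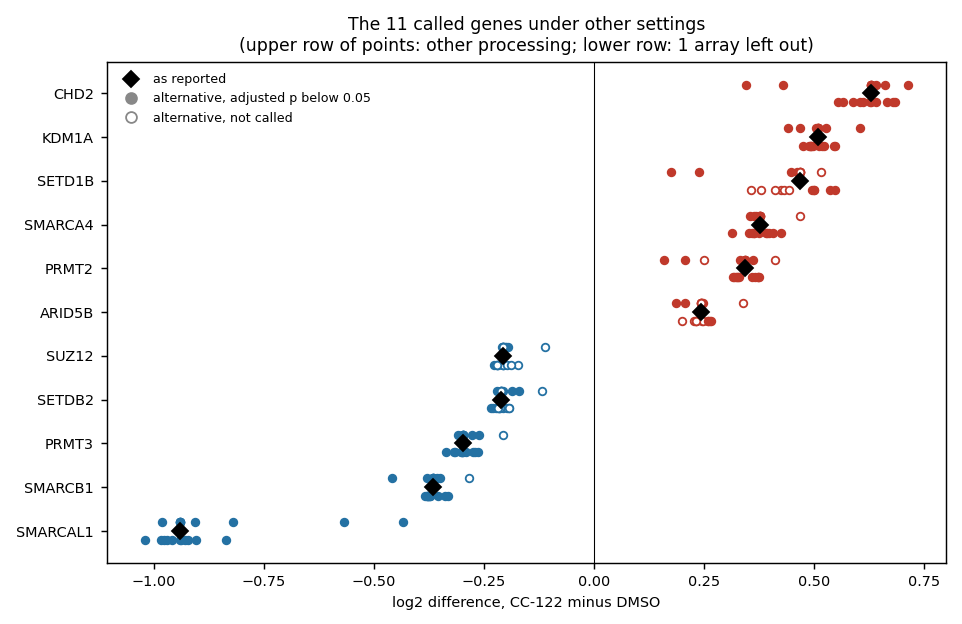
Log2 difference, CC-122 minus DMSO (horizontal axis), of the 11 called genes as reported (black) and under 21 alternatives (circles, filled where the adjusted p was below 0.05). No circle crosses 0, and CHD2, KDM1A and SMARCAL1 have filled circles only.

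The calls differed in how well they held. CHD2, KDM1A and SMARCAL1 were called under all 21 alternatives run at the threshold of 0.05. PRMT3, SMARCA4 and SMARCB1 were called under 20, with median scaling as the exception, and PRMT2 under 19. ARID5B, SETD1B and SETDB2 kept their call under 12 of 21 and SUZ12 under 8. The sign of the difference stayed the same for these 11 genes in all 21.

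Genes of partner proteins were also mostly not called. Of 155 tested genes on 8 lists of complex partners, readers and enzymes with other symbols, 8 rose and 7 fell (9.68%, background 14.8%), and their median difference was -0.06. PCGF2 is among the 8 but passed the filter through the CC-122 arrays alone, and without it, a count added after seeing the data, 7 of 154 rose and 7 fell (9.09%). None of 19 partners of deacetylase complexes (SIN3, NuRD, CoREST and NCoR genes) and none of 5 sirtuins was called by limma. At an unadjusted p below 0.05, 4 of these partners and 0 of the sirtuins passed, where 27.6% of all genes did. Of 25 Polycomb partners without PCGF2, 1 rose, 3 fell and 21 were not called (16% called, background 14.8%). PCGF2 (MEL18), a core protein of Polycomb complex 1, was detected on all CC-122 arrays and on no array of DMSO cells. Its CC-122 level was at least 1.35-fold higher, a bound against the lowest detected signal, given as a description with no test. PHC2, of the same complex, rose by 0.57 ± 0.09 (SE), and EPOP, an accessory protein of PRC2, fell by 0.53 ± 0.10. Named after their values were seen, CBX6 fell by 0.49 and PCGF6 by 0.28.

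Acetyltransferase partners held the largest change among these lists. Of 33 tested, 3 rose, 1 fell and 29 were not called (12.1% called, background 14.8%). JADE2, a scaffold of the HBO1 (KAT7) complex, had 7.96 to 8.17 after CC-122, against 6.92 to 7.23 after DMSO. The groups were far apart, and JADE2 rose by 0.97 ± 0.07 on the log2 scale (SE, limma adjusted p = 2.67e-06). BRPF3 and JADE3, also scaffolds of HBO1 complexes, rose by 0.56 ± 0.09 and 0.43 ± 0.07 (SE). A group of HBO1 partners, put together after these values were seen and so not tested, had 8 tested genes. Its other 5, JADE1, BRPF1, ING4, ING5 and MEAF6, were not called, at -0.21 to 0.11. HAT1, which acetylates new histone H4, was named after its value was seen and fell by 0.24 ± 0.07 (SE).

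Smaller counts came from the other lists (background 14.8% of all genes called). Among 13 SWI/SNF partners BRD9 rose by 0.35 ± 0.08 and BICRAL fell by 0.52 ± 0.07 (SE), both known from the non-canonical complex that lacks SMARCB1. Among 21 other remodelling genes RUVBL1, an ATPase of the INO80 and TIP60 complexes, fell by 0.40 ± 0.06. Of 21 further methyltransferases and COMPASS partners, SMYD3 fell by 0.32 ± 0.06. Of 17 readers and DNA methylation partners, GADD45B rose by 0.42 ± 0.09 and CBX5 (HP1 alpha), which binds methylated lysine 9 of histone H3, by 0.35 ± 0.09. Cereblon itself (CRBN) and Aiolos (IKZF3) were not called as transcripts, at -0.14 and 0.06.

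**Figure D5:**
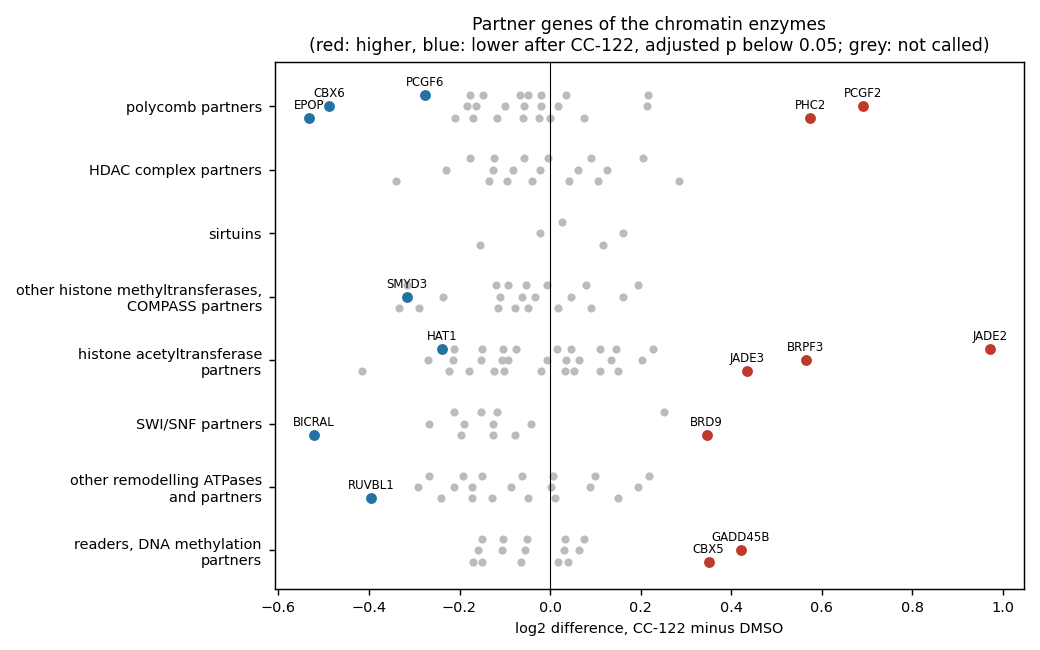
Log2 difference, CC-122 minus DMSO (horizontal axis), of the 155 tested partner genes by list, 1 point a gene, with called genes in red (higher) or blue (lower) and named. JADE2 lies farthest right at 0.97, PCGF2 is drawn at its fitted value, which is no bound, and the deacetylase partners and sirtuins have grey points only.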

How the data were processed

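The authors deposited a probe intensity for 48107 probes on each of 10 Illumina BeadChip arrays, not normalized between arrays as their differing medians show, with a detection p-value beside each. The scanner software was not given in the sources used here. The authors also deposited normalized log2 values of 34468 probes. Each such column matched its own array best (r at least 0.9999 across probes), with a median of 4.54 and no centring of genes, and the method behind them stays unknown. They served as an alternative.

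Here the neqc function (limma 3.58.1, R 4.3.3) normalized the intensities (background from the detection p-values, offset 16, quantile). 1 probe with a missing value was left out. Probes with detection p below 0.05 on at least 5 arrays were kept (17125). Names came from the platform table (26362 probes, 26359 with 1 gene, 3 with several and 21745 deposited probes unnamed), and symbols from gene identifiers (26326 matched, 36 did not). The brightest kept probe stood for a gene, chosen over all 10 arrays. CC-122 was compared with DMSO with limma's lmFit and eBayes (two-sided), and p-values were adjusted by Benjamini-Hochberg over 9041 genes. Tested on simulated arrays of 9920 genes, the steps recovered 60 of 99 genes changed 1.5-fold (60.6%) and 89 of 97 changed 2-fold (91.8%), with 5.70% false calls. The simulated arrays were given no difference in brightness, and few of their genes were changed. These rates may therefore not hold for the arrays here. The number of arrays limits the precision.

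Members and lists were chosen with earlier results of these data known. Named were all called members, 16 fixed genes, in each class the members with the highest and lowest mean and the largest uncalled change, up to 3 called genes of each partner list, and CRBN and IKZF3. Any other gene was named after its value was seen. Alternatives covered background, scaling, filter, probes, variance model, weights, threshold, single arrays and the replicate block.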

Additional observations from a re-analysis of the deposited data

Results flagged for a closer look

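A sample stood far from the other 4 of its group in 14 of 164 groups examined (82 genes in 2 groups), or 8.54%, by the gap to its nearest neighbour relative to the range. For independent, normally spread values about 1 group in 20 would be flagged. The groups here share the same 10 arrays, and an excess of flags was not tested. Among called genes this touched SMARCB1, where CC-122 replicate 2 was low at 9.99 and the other CC-122 arrays lay at 10.15 to 10.17.

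CC-122 replicate 4 stood apart in 4 genes: it was high for SETD9 (7.10) and HDAC8 (4.92) and low for PRMT9 (6.13) and KAT2A (7.20). On the other CC-122 arrays KDM2A was low in replicate 2 (7.44) and PRMT5 high in replicate 5 (9.12). Of the DMSO arrays, replicate 4 was high for EED (8.47) and low for KMT2C (4.73), and replicate 1 was low for KMT2E (5.91) and high for HDAC6 (5.70). SETD4 was low in DMSO replicate 5 (5.38), KAT14 high in DMSO replicate 2 (8.42) and CHD1L high in DMSO replicate 3 (8.26).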

How the results depend on the processing

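Over 21 alternatives the counts of 6 higher and 5 lower chromatin genes stayed within 1.5 times, with these exceptions. Median scaling gave 2 higher and 1 lower, with a median log2 difference of 0.078 (all genes 0.066). Probes detected on all arrays gave 8 lower. Stricter (0.01) and looser (0.10) adjusted p thresholds gave 2 and 8 lower. With 1 array left out, 4 to 8 were higher and 3 to 6 lower, the 3 coming without CC-122 replicate 1 or DMSO replicate 2 or 5. Current symbols gave the same members. The cause of these shifts was not tested.

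By class, median scaling gave 0 methyltransferases, 0 arginine methyltransferases and 0 SMARC and ARID genes higher, and 0, 0 and 1 lower. The fixed offset gave 2 arginine methyltransferases higher and 2 lower, and 1 demethylase lower. No background correction gave 2 arginine methyltransferases and 1 demethylase lower. Probes detected on all arrays gave 2 arginine methyltransferases higher, and 2 of them, 1 demethylase and 1 deacetylase lower. With no filter 0 methyltransferases were higher and 1 lower. The mean of probes gave 0 arginine methyltransferases higher, the intensity trend 2 lower, and array weights 1 deacetylase lower. Leaving out 1 array moved these between 0 and 1 (demethylases, acetyltransferases and deacetylases lower; methyltransferases, acetyltransferases and DNMT and TET higher), 0 and 2 (methyltransferases lower), 1 and 2 (arginine methyltransferases higher) and 1 and 3 (SMARC and ARID higher). Leaving CC-122 replicate 3 out of the normalization too, chosen after seeing the data, gave 0 methyltransferases either way, 1 deacetylase (HDAC6) lower and 1 SMARC or ARID gene higher.

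Replicate numbers were not taken to pair the arrays in the main fit, since the labels state no pairing. Same-numbered arrays carried consecutive identifying numbers in the sample descriptions, and they correlated at -0.01 to 0.14 in their deviations. Of the CC-122 arrays 3 of 5, and of the DMSO arrays 4 of 5, correlated best with their own number. A pairing is therefore not excluded. With the replicate number as a block, 8 of the 82 were called, with 0 methyltransferases higher or lower, 1 acetyltransferase lower (KAT6B) and 1 SMARC or ARID gene higher. The calls of ARID5B, SETD1B, SETDB2 and SUZ12 were lost with the block.

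Among partners, the fixed offset and no background correction each gave 2 methyltransferase partners lower, 2 SWI/SNF partners higher, and 1 other remodeller higher and 2 lower. Acetyltransferase partners lower were 2 and 4, and deacetylase partners lower were 2 without background correction. Some uncalled differences near 0 changed sign: ARID2 to -0.020 with the mean of probes, and with median scaling EP300 to 0.043, HDAC1 to 0.0102, KAT14 to 0.075, KATNA1 to 0.01005 and PRMT1 to 0.029. With 1 array left out, ARID2 lay between -0.016 and 0.072, DNMT1 between -0.0099 and 0.068, EP300 between -0.13 and 0.016, IKZF3 between -0.0055 and 0.10, KAT14 between -0.034 and 0.031, KMT5C between -0.11 and 0.16 and PRMT1 between -0.10 and 0.0045. Among the called genes, probes near background limit SMARCAL1, CHD2, SETD1B and PRMT2, whose size depends on the background correction. Dim uncalled genes share this limit. The fixed offset and no background correction both make such differences smaller, and so does the offset in the main fit. Whether the reported sizes are too large or too small was not tested.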
